A study of Mus musculus with 6 samples.

Results

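The choroid plexus, the sheet of epithelium that hangs in the brain ventricles and makes cerebrospinal fluid, releases carriers, hormones, growth factors and enzymes into that fluid. The 9 genes described here code for such products: Ttr and Folr1 carry a hormone and a vitamin, Kl codes for klotho, Igf2 and Igfbp2 are a growth factor and a binding protein, Enpp2 is a secreted enzyme, and Sostdc1, Bmp7 and Vegfa are signalling proteins. They are 9 of the 54838 genes in the count table, found by their GRCm38 gene symbols. The list was chosen by what choroid plexus genes are known to secrete and with the measured genotype difference of choroid plexus genes in these same libraries known. The differences of the 9 genes between genotypes are therefore given as descriptions with no p-value, and counts of calls among them stand only beside the share of all genes called.

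The libraries were made from polyA RNA of the hippocampus of 3 wild-type and 3 FVB/NJ-Tg(Orai1)Ibd females aged 7 months, with 1 mouse in each library. FVB/NJ-Tg(Orai1)Ibd mice, called transgenic below, carry a cDNA of the human calcium channel subunit ORAI1 in the Thy1.2 cassette, which is driven by a promoter active in neurons, and the control mice are labelled wild-type only. The comparison asks which transcripts differ in the hippocampus when neurons overexpress ORAI1. Between 37414241 and 52497799 fragments were counted on genes in a library. The mouse gene Orai1, on which reads of the human insert can be counted where they align, had 302 to 376 fragments in wild-type and 11834 to 14620 in transgenic libraries, so the high values were all in libraries with a transgenic label. Markers of hippocampal neurons summed to 1040 to 1070 CPM in wild-type and 988 to 1075 CPM in transgenic mice, where CPM are counts scaled to a common library total.

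In the brain the choroid plexus is the main site of transthyretin synthesis, and its apical membrane faces the ventricle that runs along the hippocampus. The folate receptor FOLR1 carries 5-methyltetrahydrofolate across this epithelium, and klotho, which acts as a co-receptor for fibroblast growth factor 23, is shed from it into the fluid. IGF2 made by the plexus and by the meninges acts through insulin-like growth factor receptors, and autotaxin, the product of Enpp2, makes the lipid messenger lysophosphatidic acid.

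Of the 9 genes, 4 matched the RefSeq promoter table of build GRCm38.p6, namely Kl, Igf2, Igfbp2 and Vegfa, and Ttr, Folr1, Enpp2, Sostdc1 and Bmp7 did not. The 250 bases before the first start site of each of the 4 genes are printed 5′ to 3′ on the strand of the gene, to show the sequence nearest to the deposited start of each gene. Capitals mark matches on either strand to the letters GGGCGG of the GC box, to the box known as CCAAT by its letters, or to ACGTG, the core bound by hypoxia-inducible factors. Searches were also made for a TATA box, spelled TATAAA, and for a core of the kind bound by OTX2, a homeodomain factor of the choroid plexus epithelium, spelled TAATCC. A match is a description of the letters only.
Kl, chr5:150952357-150952606, plus strand: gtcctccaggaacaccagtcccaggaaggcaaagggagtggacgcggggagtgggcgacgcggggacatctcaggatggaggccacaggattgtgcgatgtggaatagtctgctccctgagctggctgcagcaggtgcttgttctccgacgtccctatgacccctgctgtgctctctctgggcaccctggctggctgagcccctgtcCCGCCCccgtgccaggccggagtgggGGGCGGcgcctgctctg
Igf2, chr7:142666817-142667066, minus strand: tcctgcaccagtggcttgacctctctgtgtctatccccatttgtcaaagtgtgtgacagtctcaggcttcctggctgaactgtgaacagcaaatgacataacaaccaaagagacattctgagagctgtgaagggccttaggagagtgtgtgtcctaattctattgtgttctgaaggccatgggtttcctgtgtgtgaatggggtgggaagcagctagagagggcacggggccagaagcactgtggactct
Igfbp2, chr1:72824230-72824479, plus strand: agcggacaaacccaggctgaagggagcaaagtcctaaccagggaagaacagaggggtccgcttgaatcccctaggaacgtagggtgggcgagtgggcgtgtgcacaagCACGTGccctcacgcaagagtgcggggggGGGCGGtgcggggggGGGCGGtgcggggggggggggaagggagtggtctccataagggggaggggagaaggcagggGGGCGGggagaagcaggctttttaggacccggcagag
Vegfa, chr17:46032378-46032627, minus strand: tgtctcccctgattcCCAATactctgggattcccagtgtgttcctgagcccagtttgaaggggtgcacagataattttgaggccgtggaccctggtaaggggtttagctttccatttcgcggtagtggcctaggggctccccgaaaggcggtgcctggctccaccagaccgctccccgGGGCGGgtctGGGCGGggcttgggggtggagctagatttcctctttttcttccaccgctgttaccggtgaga

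The Igfbp2 window held 3 GC boxes and 1 CACGTG, which reads as the hypoxia core on both strands, and 67.2% of its bases were G or C. The Kl window held 2 GC boxes at 66.8% GC. In the Vegfa window 2 GC boxes and 1 CCAAT box were found at 59.2% GC. None of these 5 motifs lay in the Igf2 window shown, with 50.8% GC, and neither TATAAA nor TAATCC lay in any of the 4. The table holds further windows at other start sites, 3 for Igf2 and 1 each for Igfbp2 and Vegfa. Those of Igf2 had 47.6%, 68.8% and 66.0% GC, with no motif in the first, 1 GC box and 1 hypoxia core in the next, and 2 GC boxes and 1 CCAAT box in the last. The further window of Igfbp2 held no motif, and that of Vegfa held 1 GC box, 1 CCAAT box and 1 hypoxia core. Among all 32851 windows of the table, 32.7% held a GC box, 33.8% a CCAAT box, 16.6% the hypoxia core, 12.4% TATAAA and 6.25% TAATCC, and the median GC content was 52.4%.

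All 9 genes passed the filter on low counts. In wild-type mice they took a visible part of the libraries, 0.569%, 0.593% and 0.379% of all counted fragments. In transgenic mice their share was 0.0925%, 0.0656% and 0.0783%. Ttr alone supplied 54.0% to 65.6% of the fragments of the 9 genes in wild-type and 27.3% to 41.0% in transgenic mice. By count, Ttr was the 6th to the 13th gene of a wild-type library and the 351st to the 1113th gene of a transgenic one.

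With edgeR's quasi-likelihood test across all genes, 6 of the 9 genes were lower in transgenic mice at an adjusted p under 0.05 and none was higher, while of the 19087 genes tested 7.10% were called, 4.0% lower and 3.10% higher. The 6 were Ttr, Folr1, Kl, Igfbp2, Enpp2 and Sostdc1, and Igf2, Bmp7 and Vegfa did not pass. In 7 of the 9 genes every transgenic value lay below every wild-type value, which was so for 17.9% of all genes tested. Igfbp2 left the count of 6 without the first wild-type, the second wild-type or the third transgenic mouse, Vegfa entered it without the first transgenic mouse, and Igf2 entered it with no filter on low counts. Since the list was assembled with this difference in view, nothing is read from these counts. The median log2 fold change of the 9 genes was -2.05, beside -0.010 for all tested genes, and all 9 were negative. In whole tissue, fewer epithelial cells in a sample and less RNA in each cell cannot be told apart.

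**Figure D1:**
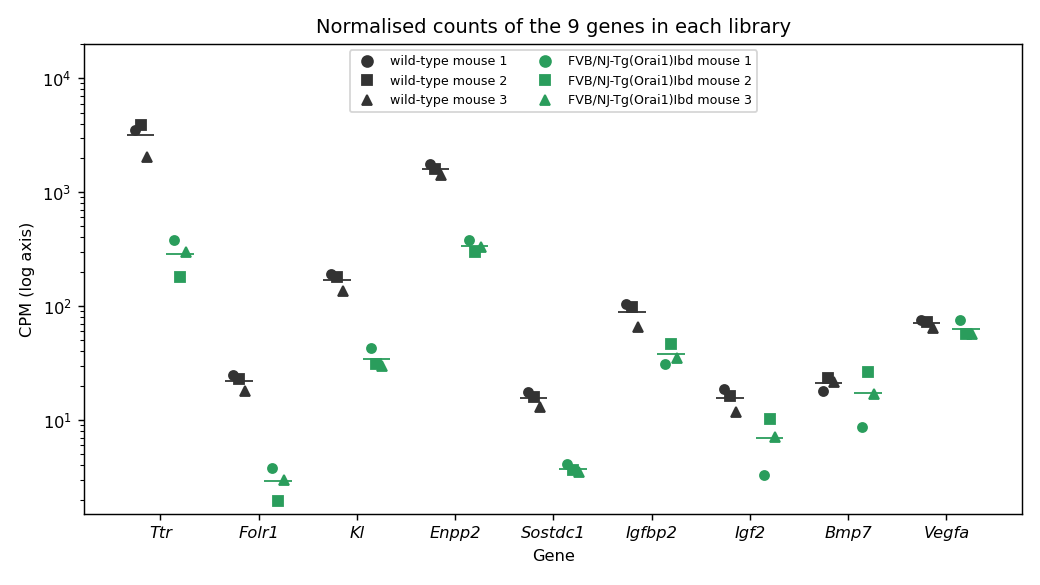
CPM (log axis) of each of the 9 genes in each library, with dark symbols for wild-type and green symbols for FVB/NJ-Tg(Orai1)Ibd mice, 1 symbol shape per mouse number and a horizontal line at each mean of 3 mice. The symbols of the genotypes stand apart for Ttr (wild-type at least 2042 CPM, transgenic at most 383 CPM) and 6 other genes, and overlap for Bmp7 and Vegfa.

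Of the carriers, Ttr codes for transthyretin, which binds thyroxine and the retinol-binding protein. The gene (ENSMUSG00000061808) lies at chr18:20665280-20674321 on the plus strand of GRCm38. Ttr had 3506, 3890 and 2042 CPM in the 3 wild-type mice and 383, 179 and 301 CPM in the 3 transgenic mice. The third wild-type mouse was the lowest of its group and still stood far above the highest transgenic mouse. The means were 3146 ± 975 CPM and 288 ± 103 CPM (SD, n = 3 each), so transgenic mice had 9.14% of the wild-type level. This is a log2 fold change of -3.45 (standard error, SE, 0.34), and 8 of the 19087 genes had a lower one.

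Folr1 codes for the folate receptor alpha, by which the epithelium takes up folate for the fluid. It lies on chromosome 7, minus strand (chr7:101858331-101870788, ENSMUSG00000001827). Wild-type mice had 24.9, 23.1 and 17.9 CPM of Folr1, and transgenic mice had 3.75, 1.94 and 2.96 CPM. The order of the mice was that of Ttr within the transgenic group, with the second mouse lowest, and the third mouse was lowest in the wild-type group. Mean levels were 22.0 ± 3.64 and 2.89 ± 0.909 CPM (SD, n = 3 each), a log2 fold change of -2.92 (SE 0.23). The lowest library held 74 fragments of Folr1 and the highest 1305.

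Klotho, the product of Kl (ENSMUSG00000058488, chr5:150952607-150993817, plus strand), is a membrane protein whose shed form reaches the cerebrospinal fluid. In wild-type mice Kl had 189.8, 179 and 135 CPM. In transgenic mice it had 42.6, 30.7 and 30.0 CPM. The groups did not overlap, and the first mouse was the highest of each. The means of 168 ± 29.0 and 34.4 ± 7.07 CPM (SD, n = 3 each) gave a log2 fold change of -2.28 (SE 0.17). The paper also measured Folr1 and Kl by real-time PCR in hippocampi of other females. Both were lower in transgenic mice there, with p-values above 0.05 (Tukey's test).

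Enpp2 codes for autotaxin, a secreted lysophospholipase. It lies on the minus strand of chromosome 15 (chr15:54838901-54952892, ENSMUSG00000022425). Wild-type mice had 1754, 1610 and 1408 CPM of Enpp2, against 382, 300.3 and 329 CPM in the transgenic group. All transgenic values were close to each other and well below the wild-type values. The means were 1591 ± 174 and 337 ± 41.2 CPM (SD, n = 3 each), with a log2 fold change of -2.24 (SE 0.11), the smallest error among the 6 genes called. Oligodendrocytes are also known to express Enpp2, and their 11 markers summed to 4791 to 6455 CPM in wild-type and 6038 to 6748 CPM in transgenic mice, with none called. An antisense gene, Gm26684, shares 345 exonic bases with Enpp2 and had 19 to 108 fragments, and the counting kept the strands apart.

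Sostdc1 codes for a secreted antagonist of BMP and WNT signals. On chr12:36314139-36318452, plus strand (ENSMUSG00000036169), it had 17.5, 16.0 and 12.9 CPM in wild-type mice and 4.09, 3.62 and 3.47 CPM in transgenic mice. The groups stood apart, and the transgenic mice were the most alike for any of the 9 genes, with a coefficient of variation of 8.74%. Means of 15.5 ± 2.32 and 3.73 ± 0.326 CPM (SD, n = 3 each) gave a log2 fold change of -2.05 (SE 0.13).

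Igfbp2 and Igf2 belong to one system, the binding protein holding the growth factor in the fluid. Igfbp2 (ENSMUSG00000039323, chr1:72824503-72852474, plus strand) had 103, 99.0 and 65.5 CPM in wild-type mice and 31.2, 46.6 and 35.3 CPM in transgenic mice. The groups did not overlap, but the third wild-type mouse came nearer to the transgenic group than the others. Means of 89.3 ± 20.6 and 37.7 ± 7.98 CPM (SD, n = 3 each) gave a log2 fold change of -1.25 (SE 0.20). Its log2 fold change ran from -1.42 to -1.11 over all alternatives.

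Igf2 (ENSMUSG00000048583) lies at chr7:142650766-142666816 on the minus strand. It had 18.7, 16.3 and 11.8 CPM in wild-type mice and 3.30, 10.2 and 7.10 CPM in transgenic mice. The second transgenic mouse was close to the third wild-type mouse, and the groups just failed to overlap. Mean levels of 15.6 ± 3.51 and 6.88 ± 3.47 CPM (SD, n = 3 each) gave a log2 fold change of -1.20 (SE 0.36), which ran from -1.58 without the second transgenic mouse to -0.85 without the first. Of its 5723 exonic bases, 3596 are shared with Gm49394 on the same strand, which had at most 7 fragments in a library. Fragments that lie on both genes are left out by the default counting rule, so the level of Igf2 is understated in both genotypes.

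Values of Bmp7, a BMP ligand that choroid plexus and meninges express, overlapped between the genotypes. The gene (ENSMUSG00000008999) lies at chr2:172868012-172940321, minus strand. Values were 18.0, 23.3 and 21.7 CPM in wild-type mice and 8.60, 26.3 and 17.0 CPM in transgenic mice. The lowest and the highest of the 6 libraries were both transgenic. The log2 fold change was -0.29 (SE 0.34), between means of 21.0 ± 2.73 and 17.3 ± 8.84 CPM (SD, n = 3 each). It turned to 0.046 without the first transgenic mouse and was -0.70 without the second.

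Vegfa codes for the vascular growth factor that keeps the vessels of the plexus fenestrated, and astrocytes and neurons express it too. It lies at chr17:46016993-46032369, minus strand (ENSMUSG00000023951). Wild-type mice had 75.3, 72.1 and 64.7 CPM of Vegfa, and transgenic mice had 74.9, 57.0 and 56.7 CPM. The first transgenic mouse lay within the wild-type range and the other two lay below it. The means of 70.7 ± 5.45 and 62.8 ± 10.4 CPM (SD, n = 3 each) differed by a log2 fold change of -0.17 (SE 0.11). The log2 fold change of Vegfa was -0.32 without the first transgenic mouse, -0.078 without the second and -0.077 without the third.

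Levels of different genes were compared per length, as FPKM, the count of a gene relative to its exonic length and to the unscaled total of its library. In wild-type mice Ttr stood first at 2653 ± 818 FPKM, followed by Enpp2 at 275 ± 29.2, Igfbp2 at 48.3 ± 11.1 and Kl at 18.0 ± 3.06 FPKM (SD, n = 3). Vegfa at 16.5 ± 1.22 FPKM could not be separated from Kl, since their ranges overlapped. Folr1 at 9.57 ± 1.55 and Sostdc1 at 8.69 ± 1.28 FPKM overlapped as well, and Bmp7 followed at 5.23 ± 0.693 FPKM. Igf2 was listed last at 2.73 ± 0.605 FPKM, but this value divides by all its exonic bases although fragments on the shared ones are left out, so its place is not settled in either genotype.

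In transgenic mice the first 3 places were the same, with Ttr at 242 ± 85.4, Enpp2 at 58.2 ± 6.79 and Igfbp2 at 20.4 ± 4.40 FPKM (SD, n = 3). Vegfa came next at 14.6 ± 2.34 FPKM and overlapped with Igfbp2. Bmp7 at 4.30 ± 2.21 FPKM overlapped with Kl at 3.68 ± 0.735 FPKM, whereas in wild-type mice every value of Kl lay above every value of Bmp7. Sostdc1 had 2.09 ± 0.171 FPKM, and Folr1 at 1.25 ± 0.389 FPKM overlapped with Igf2 at 1.20 ± 0.609 FPKM.

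The 9 genes did not share 1 size of difference. Relative to Ttr in the same library, Folr1 was higher by 0.50 on the log2 scale in transgenic than in wild-type mice, which was the smallest of the 8 shifts. The ratio to Ttr was higher by 1.18 for Kl, 1.23 for Enpp2 and 1.42 for Sostdc1. For Igf2 and Igfbp2 it was higher by 2.16 and 2.23, and for Bmp7 and Vegfa by 3.05 and 3.29. In all 8 genes every transgenic ratio lay above every wild-type ratio. With Ttr the lowest of the 9 in log2 fold change, higher ratios were set in advance, and nothing is read from this count. The 8 ratios share Ttr as their denominator and are no independent observations.

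The genes also differed in how the mice of 1 genotype were ordered. The third wild-type mouse was lowest for 8 of the 9 genes, Bmp7 being the exception. Among transgenic mice, Ttr, Folr1 and Enpp2 were lowest in the second mouse and highest in the first. Igf2, Igfbp2 and Bmp7 had the opposite order, lowest in the first and highest in the second transgenic mouse.

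**Figure D2:**
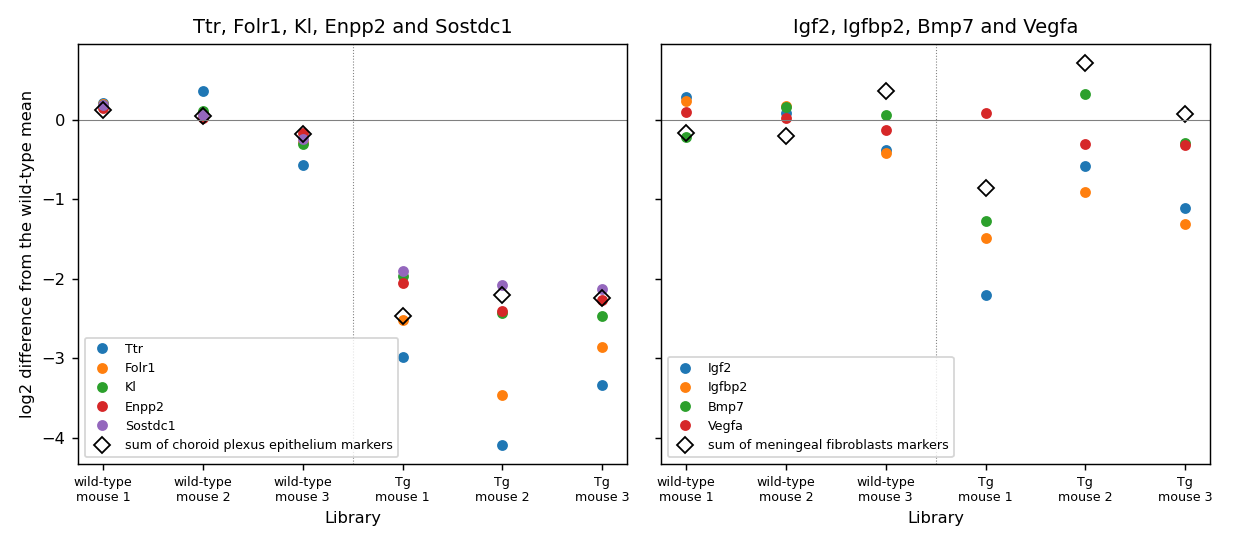
Difference in log2 CPM of each gene from its mean in wild-type mice (vertical axis, log2 units) in each library (horizontal axis, Tg for FVB/NJ-Tg(Orai1)Ibd), with filled points for genes and open diamonds for the summed CPM of a marker list. Ttr in the second transgenic mouse is the lowest point at -4.08, while in the right panel Bmp7 in that mouse lies above 0 at 0.33.

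Markers of the cells that a dissected hippocampus can hold were set beside these values, with lists written when earlier results of these data were known. Of 17 other choroid plexus epithelium genes, such as Aqp1, Kcnj13 and Otx2, 16 were lower in transgenic mice at an adjusted p under 0.05 (edgeR) and none was higher, beside 4.0% of all genes lower. Their summed level was 547, 519 and 441 CPM in wild-type and 90.2, 109 and 106 CPM in transgenic mice, and their median log2 fold change was -2.73. No marker was at 0 in all libraries. The exception was Slc13a4, a sulfate transporter that meningeal cells express as well, with 48.8, 51.2 and 51.5 CPM in wild-type and 12.7, 49.5 and 35.5 CPM in transgenic mice (adjusted p = 0.338, edgeR). Slc13a4 had the order of Igf2, Igfbp2 and Bmp7 in transgenic mice.

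The 10 markers of meningeal fibroblasts were not called, with a median log2 fold change of -0.0046. They summed to 245, 239.5 and 353 CPM in wild-type and to 152, 451 and 288 CPM in transgenic mice. Their most abundant member, Dcn, which codes for the matrix protein decorin, had 68.0, 168 and 91.7 CPM in the 3 transgenic mice. The order of the transgenic mice was thus the one of Igf2, Igfbp2 and Bmp7, lowest in the first and highest in the second mouse. This order was not particular to meningeal markers. The astrocyte sum (4393, 5655 and 5574 CPM), the endothelial sum (173, 267 and 240 CPM) and the choroid plexus sum had it too. The sums of ependymal, oligodendrocyte, hippocampal neuron and thalamus markers did not. In wild-type mice the third was the highest for the meningeal sum and the lowest for Igf2 and Igfbp2. The part of the meningeal share of a sample in the values of these 3 genes was not tested.

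**Figure D3:**
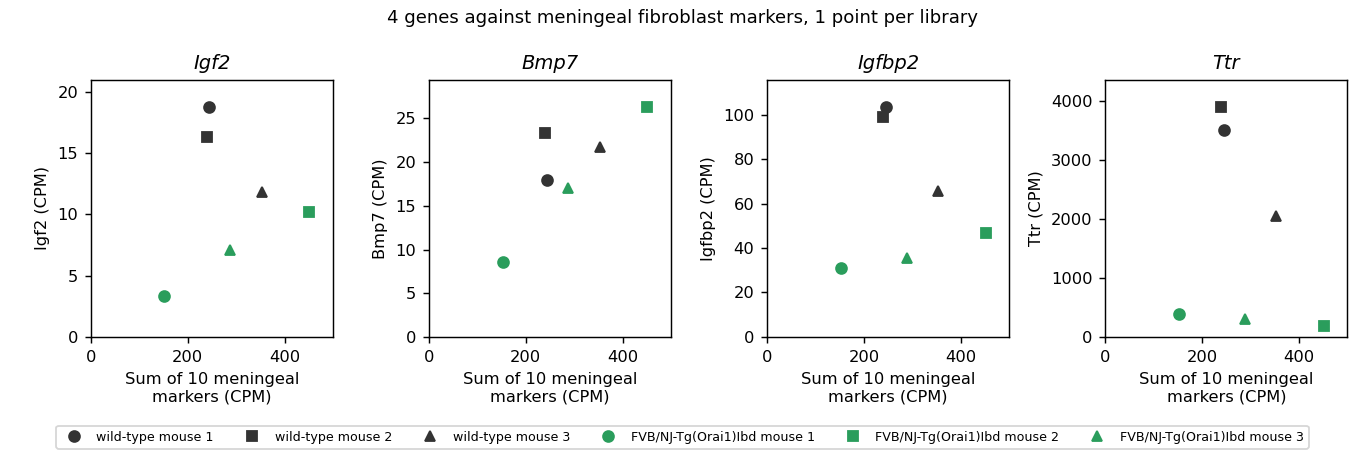
CPM of Igf2, Bmp7, Igfbp2 and Ttr (vertical axes from 0) against the summed CPM of 10 meningeal fibroblast markers (horizontal axis), 1 point per library, dark for wild-type and green for FVB/NJ-Tg(Orai1)Ibd mice. The green points of Igf2 go from 3.30 CPM at a meningeal sum of 152 CPM to 10.2 CPM at 451 CPM, while those of Ttr go from 383 to 179 CPM.

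Ependymal cells, which line the ventricle wall, were represented by 9 markers, of which 8 were tested and none was called. They summed to 49.0 to 70.4 CPM in wild-type and 33.5 to 44.0 CPM in transgenic mice, so the ranges did not overlap, and their median log2 fold change was -0.62. Foxj1, Tekt1 and Rsph1 did not overlap between genotypes, with log2 fold changes of -0.69, -0.69 and -0.66 (adjusted p = 0.083, 0.094 and 0.077, edgeR). Rarres2, the most abundant over the 6 libraries together, had a log2 fold change of -0.17 (adjusted p = 0.641, edgeR). Sums over 8 astrocyte markers were 4569 to 6342 CPM in wild-type and 4393 to 5655 CPM in transgenic mice, and those over 6 thalamus markers were 159 to 167 and 121 to 176 CPM. None of these was called, and neither was any of the 8 markers of hippocampal neurons. Of 9 endothelial markers, summing to 188 to 220 and 173 to 267 CPM, Cldn5, which codes for a tight junction protein, was called, with a log2 fold change of 0.66 (adjusted p = 0.043, edgeR). How far the amount of plexus, ependyma or meninges in a sample enters the values of the 9 genes was not tested.

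The other genes of the pathways in which the 9 products act were taken from 7 lists, which held 106 genes, of which 103 were tested. At an adjusted p under 0.05 (edgeR's quasi-likelihood test, adjusted over all 19087 genes), 9 of the 103 were called, beside 7.10% of all genes. The medians of the lists lay between -0.14 and 0.025 on the log2 scale, beside -0.010 for all genes. Apart from Ins2, all tested genes of the lists lay between -0.87 and 0.70.

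**Figure D4:**
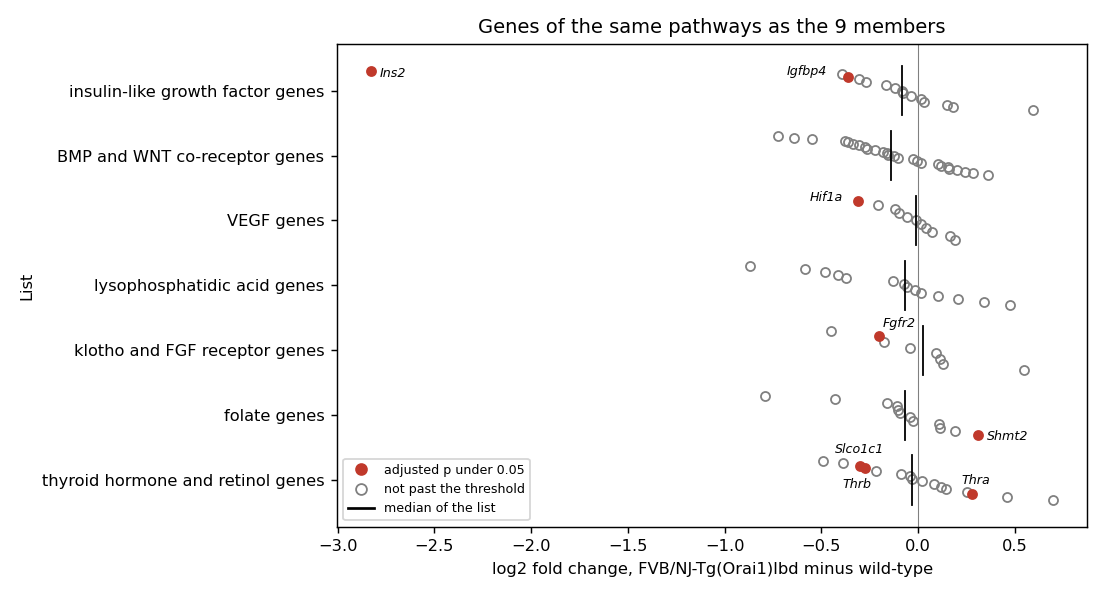
Log2 fold change (horizontal axis, FVB/NJ-Tg(Orai1)Ibd minus wild-type) of tested genes of 7 lists of pathway genes (vertical axis), with filled red points for an adjusted p under 0.05, open points for the rest and a black line at the median of each whole list. Apart from Ins2 at -2.83, the called genes shown lie between -0.36 and 0.31.

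Of 15 tested genes of the insulin-like growth factor system, 2 were lower. Ins2, an insulin gene next to Igf2 on chromosome 7, had 58, 33 and 14 fragments in wild-type and 7, 3 and 3 in transgenic libraries, a log2 fold change of -2.83 (SE 0.51, adjusted p = 0.028, edgeR). At these low counts the size of the difference is imprecise. Ins2 passed the threshold in 8 of 14 alternatives and was lost without any 1 of 4 mice, the first wild-type, the second wild-type, the second transgenic or the third transgenic mouse, while it had no adjusted p with DESeq2's Wald test and was not tested with at least 10 counts required in every library. Igfbp4, a binding protein, had a log2 fold change of -0.36 (SE 0.086, adjusted p = 0.048, edgeR). Igfbp4 passed in 4 of 14 alternatives and was lost with DESeq2's size factors (adjusted p = 0.053), with the replicate block (adjusted p = 0.075) and without any 1 of the 6 mice (adjusted p = 0.055 to 0.157). The receptors Igf1r and Igf2r did not pass, with log2 fold changes of -0.08 and -0.12.

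The thyroid hormone and retinol list, the one of the ligands that transthyretin carries, had 4 calls among 17 tested genes. Slco1c1, which codes for the thyroid hormone transporter OATP1C1, had 87.6, 84.7 and 77.5 CPM in wild-type mice and 68.9, 68.7 and 65.4 CPM in transgenic mice. The groups did not overlap, with a log2 fold change of -0.30 (adjusted p = 0.030, edgeR). The receptor genes differed in direction, Thra being higher by 0.28 (adjusted p = 0.026, edgeR) and Thrb having a log2 fold change of -0.28 (adjusted p = 0.031, edgeR). Slco1c1, Thra and Thrb passed the threshold in 8 of 14 alternatives and did not pass with GC offsets, where their log2 fold changes were -0.18, 0.17 and -0.17.

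In the other lists calls were few. Of 11 VEGF genes, Hif1a was lower, with a log2 fold change of -0.31 (adjusted p = 0.044, edgeR), and the receptors Kdr and Flt1 had log2 fold changes of 0.041 and 0.074. Among 8 klotho and FGF receptor genes, Fgfr2 was lower by a log2 fold change of -0.20 (adjusted p = 0.048, edgeR). Shmt2, a mitochondrial enzyme of folate metabolism, was higher among 12 folate genes, with a log2 fold change of 0.31 (adjusted p = 0.037, edgeR). Hif1a and Shmt2 passed in 6 of 14 alternatives and Fgfr2 in 3, and none of them passed with GC offsets, where the log2 fold change was -0.16 for Hif1a, 0.22 for Shmt2 and -0.20 for Fgfr2. None of the 26 BMP and WNT co-receptor genes and none of the 14 lysophosphatidic acid genes passed the threshold, and their medians were -0.14 and -0.065. Lpar1, a receptor for the product of autotaxin, had 38.7 ± 6.58 and 41.6 ± 7.11 CPM (SD, n = 3 each).

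Genes with the nearest profile over the 6 libraries were sought for each of the 9 among 15737 genes with a mean log2 CPM over 0, by the root mean square difference of centred log2 CPM. For Ttr these were Slc4a5, Mfrp and Slc16a8, at 0.231, 0.250 and 0.274 log2 units. Folr1 was nearest to Slc28a3, Cldn2 and Col4a3, at 0.173 to 0.223. Kl, Enpp2 and Sostdc1 shared Lbp and Col8a2 among their nearest 3 genes, at 0.0702 to 0.176. Otx2 was also among the nearest 3 of Kl and Enpp2, at 0.152 and 0.185.

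Igfbp2 was nearest to Pla2g5, Ltc4s and Slc2a12, at 0.110 to 0.155. Igf2 was nearest to Wfikkn2, Angptl2 and Bst2, at 0.232 to 0.254. For Bmp7 the nearest were Gbp11, Sema3d and Aox3, at 0.102 to 0.117. Vegfa was nearest to Elovl6, Sms-ps and Sorl1, at 0.0329 to 0.0376. Only Ttr, Folr1, Kl, Enpp2 and Sostdc1 had a gene of the choroid plexus epithelium list among their nearest 3. Each profile holds the genotype difference itself, and that list was written with earlier results of these data known. Nothing is therefore read from these matches.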

How the data were processed

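RNA of the hippocampus of 3 wild-type and 3 FVB/NJ-Tg(Orai1)Ibd females was sequenced, 1 library for each mouse. The authors trimmed reads with Trimmomatic, aligned them to mm10 with STAR and deposited raw counts of fragments per gene from featureCounts 1.5.0-p1, without normalization, beside gene lengths (summed exons, bp). Versions of Trimmomatic and STAR were not given in the sources used here. Per the file header, read pairs were counted by strand (setting 2, reversely stranded) on the Ensembl 95 annotation of GRCm38, from primary alignments with a mapping quality of at least 3.

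Counts were filtered with edgeR's filterByExpr (minimum count 10), which kept 19087 genes, and scaled by TMM (factors 0.992 to 1.00). CPM refer to scaled library totals, FPKM to unscaled totals and the deposited length. The genotype difference was fitted over the 6 libraries with no covariate and tested by edgeR's quasi-likelihood method, with Benjamini-Hochberg adjustment over all tested genes and a threshold of 0.05. The paper's NOISeq was not used. Fits were tested on simulated data. The smallest p that an exact permutation test (two-sided) allows for 3 mice in each genotype is 0.1. P-values weigh a difference against the spread between these mice, moderated across genes. No litter or cage is stated for the mice.

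The 9 genes, the pathway lists and the marker lists were chosen with earlier results of these data known. Named beside the 9 are the pathway genes past the threshold (at most 4 for each list), the most abundant marker of a list described, the 3 genes nearest in profile (log2 CPM with a prior count of 2) to each of the 9, and Orai1. Other pathway genes, markers given as examples and Cldn5 were named after their values were seen. One gene covered by this rule is not reported here and is not drawn. Symbols and GC content were taken from GENCODE M21. R 4.3.3, edgeR 4.0.16, DESeq2 1.42.0, Python 3.11.15, pandas 2.3.3 and matplotlib 3.10.9 were used. In 14 alternatives, 6 of which leave out 1 mouse, the scaling, the test, the filter, a replicate block and loess GC offsets (span 0.5) were varied.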

Additional observations from a re-analysis of the deposited data

How the results depend on the processing

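For the 9 secreted factors and carriers, given without a test of their own, the count of calls was 6 and the 14 alternatives gave 5 to 7. In the alternatives that kept all 6 mice, every log2 fold change of the 9 genes stayed within 1 SD of the spread between mice. Leaving out 1 of 3 mice can hardly move a group mean by 1 SD, so that bound could not fail there. With 1 mouse left out, log2 fold changes ran from -0.70 to 0.046 for Bmp7 and from -1.58 to -0.85 for Igf2. The sign turned only for Bmp7, to 0.046 without the first transgenic mouse. The count of genes whose genotypes did not overlap was 7, or 7 to 8 with 1 mouse left out. Calls over all genes moved more. In place of 1355 genes (591 higher, 764 lower), DESeq2's Wald test gave 2230 (1055 higher, 1175 lower), and GC offsets gave 412 (165 higher, 247 lower). The replicate block gave 738 (263 higher, 475 lower), and GC offsets with the replicate block gave 485 (167 higher, 318 lower). With 1 mouse left out, 77 to 1149 genes were called, 11 to 466 higher and 66 to 683 lower, with the lowest counts without the first wild-type mouse (77), the second wild-type mouse (94), the third transgenic mouse (108) and the second transgenic mouse (192). The 9 calls among pathway genes became 16 with DESeq2's Wald test, 3 with GC offsets, 3 with GC offsets and the replicate block, and 1 to 11 with 1 mouse left out, 1 without each of those 4 mice. The cause of these shifts was not tested. What a replicate number marks is not stated, and the mice were not treated as pairs. Over 11191 genes, deviations of same-numbered mice correlated at -0.357 to 0.399, and those of other pairs at -0.588 to 0.536. Deviations from a mean of 3 mice depend on each other, so these ranges cannot settle whether the numbers pair mice. With the block 6 of the 9 genes were called, as without it. Ins2, with 3 to 58 fragments in a library, is imprecise by counting alone.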
